A study of Homo sapiens with 6 samples.

Results

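The genes of the mitotic spindle, the kinetochore and cytokinesis were followed in SW-1990 cells, a cell line from a human pancreatic adenocarcinoma, with and without knockdown of PRLR, the prolactin receptor. The set was a list of 50 gene symbols, and where several probe sets carried only that symbol, the one with the top mean log2 signal over all 6 arrays stood for the gene. All 50 were measured, out of 19775 genes. The sh-Ctrl cells carried a lentiviral scrambled shRNA and the sh-PRLR cells a lentiviral shRNA against PRLR, with 3 Affymetrix arrays of total RNA in each group. Both groups had been under puromycin selection (1 μg/ml) for longer than 7 days. The labels call the arrays biological replicates without saying whether cells came from separate infections or from clones, so p-values measure the spread between these arrays. All levels are log2 signals, a difference is sh-PRLR minus sh-Ctrl, and ± is the SD over 3 arrays.

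Mitosis is driven by cyclin B bound to the kinase CDK1, together with the Aurora and Polo-like kinases. Kinetochores couple chromosomes to spindle microtubules, and a checkpoint at the kinetochore holds back the anaphase-promoting complex until every chromosome is attached. That complex then marks securin and the cyclins for destruction, the chromatids part, and the central spindle and an actomyosin ring divide the cell. Many of the genes are transcribed late in the cell cycle under MYBL2 and FOXM1, so in a culture of mixed cells their RNA follows both the share of cells in G2 and mitosis and the level in each such cell, which bulk arrays cannot tell apart.

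The PRLR probe set with the lowest p averaged 6.14 ± 0.32 in the sh-Ctrl cells and 4.84 ± 0.15 after knockdown, with no overlap. The PRLR probe set with the top mean signal averaged 5.69 ± 0.31 against 5.46 ± 0.36, and its groups overlapped. The means of all 7 PRLR probe sets were lower in sh-PRLR, by -1.82 to -0.18, and 0 passed limma in a fit of single probe sets (adjusted p from 0.0948 to 0.950). In that fit the one with the top mean changed by -0.23 (limma adjusted p = 0.833). All 7 lay below the median gene level in both groups, so the arrays show the knockdown only at low signal. All 8 epithelial markers, among them EPCAM and KRT18, were above the median gene level of 7.23, and CDH1 (-0.17) and ELF3 (-0.90) fell. Of 22 measured markers of T cells, macrophages, leukocytes, endothelium, fibroblasts, acinar cells and islets, 3 were above that level. The acinar gene CEL, below that level in both groups, fell from 5.56 ± 0.50 to 2.48 ± 0.90. The summed linear signal of both acinar markers was 51.3 to 71.2 on control arrays and 8.13 to 9.51 on knockdown arrays. Summed on the linear scale all 22 markers ran from 1091 to 1201 in sh-Ctrl and from 921 to 1205 in sh-PRLR. The probe sets for 18S ribosomal RNA averaged 12.78, 12.81 and 13.39 on control arrays and 13.69, 13.37 and 13.39 on knockdown arrays, and their part in the results below was not tested.

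Most mitosis genes lay close to their control level in sh-PRLR cells. AURKA, CDC25B, UBE2C and KIF2C rose, each by 1.16 to 1.19-fold, and the chromokinesin gene KIF4A fell to 0.808 of control. These 5 of 50 genes were the ones past limma with intensity-dependent variance at an adjusted p of 0.05, against 7.66% of all genes and 14.6% of genes above the median level, where all 50 mitosis genes lay. In single directions the shares were 3.34% higher and 4.32% lower over all genes, and 6.43% higher and 8.17% lower over genes above the median level. The share of the mitosis genes that passed was thus near that of the arrays as a whole. With limma's default settings, which call 0.0202% of all genes, 0 of 50 passed and 7 had an unadjusted p under 0.05. The count of 5 was 2 without sh-Ctrl replicate 1, 1 without sh-Ctrl replicate 2, 2 without sh-PRLR replicate 2 and 3 without sh-PRLR replicate 3.

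The 50 log2 changes ran from -0.31 to 0.34, with 31 genes higher and 19 lower and a median of 0.039, beside a median of -0.0013 over all genes. The median size of change, sign aside, was 0.081 for the mitosis genes, 0.136 for genes above the median level and 0.238 for all genes. For 47 of 50 genes the 95% interval of limma lay within a change of 0.5 in either direction, which is 1.41-fold, and for all 50 it lay within 1. The exceptions at 0.5 were PLK1 (-0.11 to 0.80), CDC25C (0.12 to 0.56) and SPC24 (-0.55 to 0.39). Every array of one group lay above every array of the other for 12 of 50 genes, 8 higher and 4 lower, beside 25.8% of all genes and 38.9% of genes above the median level. Within a group the genes were tight, with a median SD of 0.071 against 0.100 for genes above the median level. Scatter was wider at low level (median SD 0.248 over all genes), and the sets compared here were not matched for level.

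**Figure D1:**
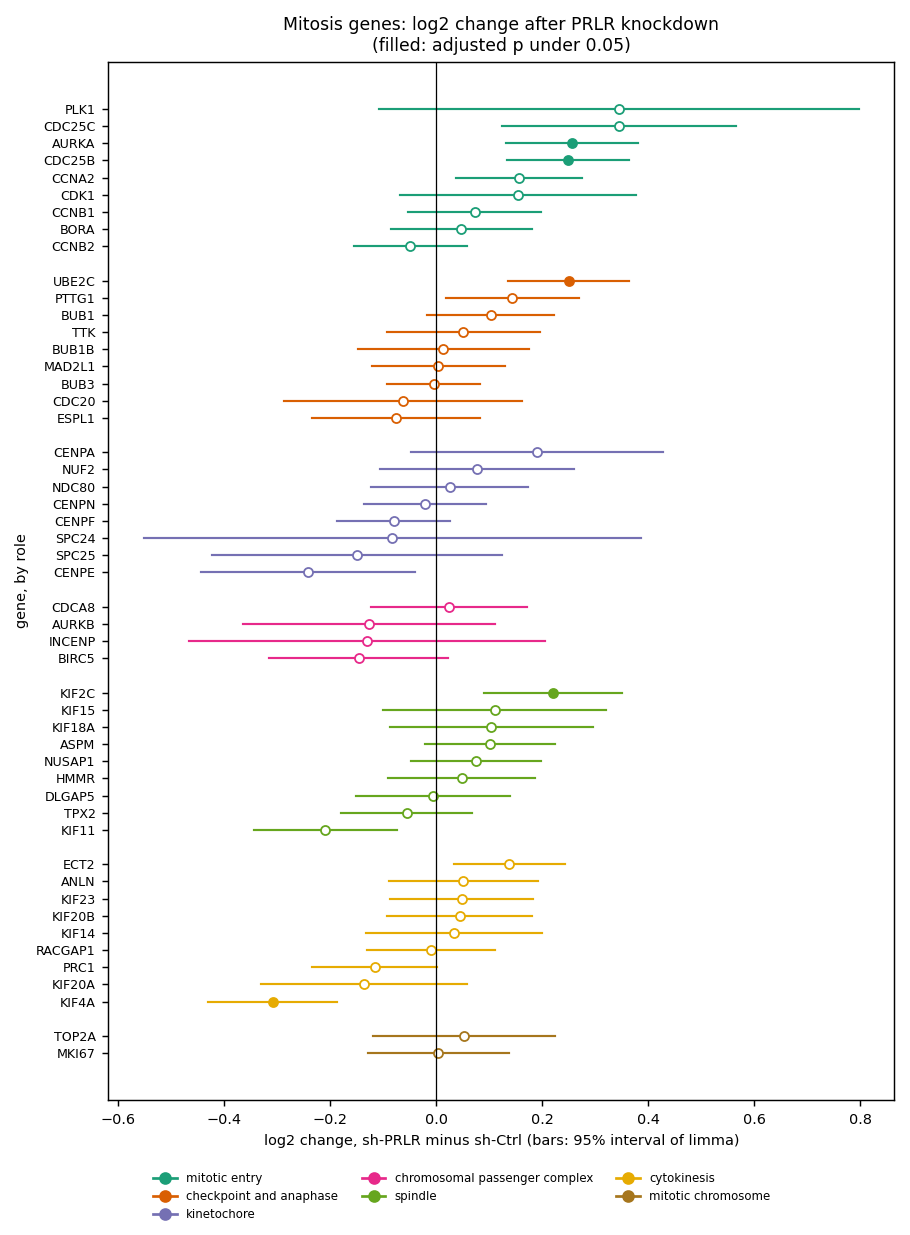
Log2 change of each of the 50 mitosis genes, sh-PRLR minus sh-Ctrl, with the 95% interval of limma, ordered by role; filled points passed an adjusted p of 0.05. The 4 filled points on the right are AURKA, CDC25B, UBE2C and KIF2C, and the 1 on the left is KIF4A at -0.31.

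Promoter sequences were searched for motifs already known from promoters of mitotic genes, so a high share among these genes follows in part from that choice. The motifs searched, on either strand, were the cell cycle genes homology region, written TTTGAA or TTCGAA and bound by the MuvB complexes that carry MYBL2, and CCAAT, the box bound by NF-Y. TTCGAA reads alike on both strands, and either form of the homology region can overlap CCAAT by at most 1 base. RefSeq's table (GRCh38.p14) held 53 promoters of 43 of the 50 genes, each running from 250 bases before the start of transcription to 50 after it. The homology region was present in 71.7% of them, in 16.4% of all 35116 promoters, in 35.1% of 134 promoters of other mitosis genes and in 1 of 31 promoters of DNA replication genes. CCAAT was present in 77.4%, 34.6%, 47.0% and 61.3% of the same sets. Both were found in 32 of 53 promoters of the mitosis genes and in 6.38% of all promoters. Of 53 matches to the homology region in the mitosis promoters, 38 began within 60 bases of the start. A site in overlapping promoters of the same gene, as in CDC25C and ECT2, was counted once for each promoter. A match describes letters only and does not show a bound site.

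The stretches below are the 120 bases before the start, 5′ to 3′, with both motifs in capitals. KIF4A (chrX:70289984-70290103, plus strand), CDC25B (1 of its 4 starts, chr20:3796190-3796309, plus strand) and KIF2C (chr1:44739717-44739836, plus strand) are shown because they are the genes past the test that the table holds. PLK1 (chr16:23678769-23678888, plus strand), CCNB2 (chr15:59105026-59105145, plus strand) and PRC1 (chr15:90994536-90994655, minus strand) show both motifs in genes that did not pass.
KIF4A: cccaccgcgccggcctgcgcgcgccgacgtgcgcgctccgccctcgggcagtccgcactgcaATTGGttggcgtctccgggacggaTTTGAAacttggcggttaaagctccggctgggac
CDC25B: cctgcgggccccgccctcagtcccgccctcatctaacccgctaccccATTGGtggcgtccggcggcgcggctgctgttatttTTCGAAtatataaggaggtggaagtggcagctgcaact
KIF2C: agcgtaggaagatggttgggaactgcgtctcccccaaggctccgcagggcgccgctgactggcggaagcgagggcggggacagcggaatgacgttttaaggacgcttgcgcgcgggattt
PLK1: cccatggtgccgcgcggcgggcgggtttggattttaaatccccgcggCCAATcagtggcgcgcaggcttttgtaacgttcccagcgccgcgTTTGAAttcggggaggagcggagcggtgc
CCNB2: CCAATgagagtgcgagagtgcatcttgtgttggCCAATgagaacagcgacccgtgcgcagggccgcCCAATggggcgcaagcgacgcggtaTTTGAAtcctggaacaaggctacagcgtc
PRC1: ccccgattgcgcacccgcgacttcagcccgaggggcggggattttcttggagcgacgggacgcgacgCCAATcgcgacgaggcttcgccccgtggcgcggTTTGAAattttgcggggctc

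In KIF4A, CDC25B, PLK1, CCNB2 and PRC1 the homology region begins 34, 38, 29, 29 and 20 bases before the start, and the NF-Y box nearest to it begins further out, at 58, 73, 73, 54 and 53 bases. KIF2C holds neither motif in its window. The CDC25B start shown is the 1 of 4 with the homology region. Another start holds CCAAT alone, and the other two hold neither motif. Across the 43 genes with a promoter, the 35 with the homology region had a median change of 0.044 (range -0.31 to 0.34) and the 8 without it a median of -0.0050 (range -0.24 to 0.22). Of the genes past the test, CDC25B and KIF4A, which moved in opposite directions, hold the motif, KIF2C does not, and AURKA and UBE2C were not in the table. The medians are given as a description.

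**Figure D2:**
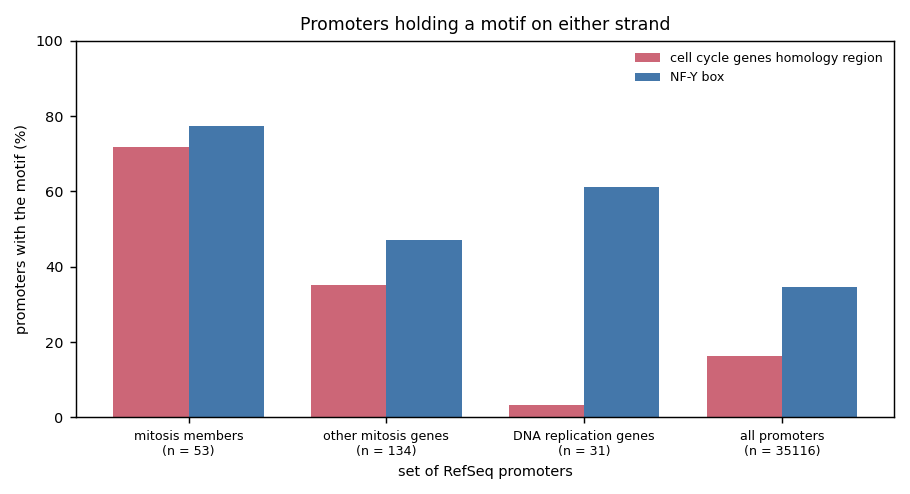
Share of RefSeq promoters that hold the cell cycle genes homology region or the NF-Y box on either strand, for the mitosis genes, other mitosis genes, DNA replication genes and all promoters. The homology region is in 71.7% of mitosis promoters and 16.4% of all promoters.

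Among the genes of mitotic entry, AURKA and CDC25B rose, and 8 of 9 had a higher mean after knockdown (median change 0.16). AURKA encodes Aurora A, the kinase that matures centrosomes and activates PLK1. On the control arrays 1, 2 and 3 against knockdown arrays 1, 2 and 3, the order used throughout, it read 11.79, 11.85 and 11.78 against 12.01, 12.02 and 12.15. The groups did not overlap, and the change was 0.26 (SE 0.056, limma adjusted p = 0.0203). A second AURKA probe set passed as well, at 11.66, 11.68 and 11.66 against 11.91, 12.07 and 11.96 (0.32, limma adjusted p = 0.0109 in the probe-set fit), while the third differed by 0.14 without passing. CDC25B, a phosphatase that removes inhibitory phosphates from CDK1, read 12.15, 12.23 and 12.23 against 12.42, 12.52 and 12.42. All sh-PRLR arrays again lay above all sh-Ctrl arrays (0.25, SE 0.052, limma adjusted p = 0.0158). AURKA no longer passed when any single sh-Ctrl array (limma adjusted p = 0.0743, 0.0579 and 0.0744 without replicate 1, 2 or 3) or sh-PRLR replicate 3 (0.0732) was left out. CDC25B no longer passed without sh-Ctrl replicate 1 (limma adjusted p = 0.0688), sh-Ctrl replicate 2 (0.0579) or sh-PRLR replicate 2 (0.0721).

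CDK1, the kinase at the centre of mitotic entry, scattered more. It read 13.12, 13.24 and 13.56 against 13.61, 13.40 and 13.37, so that sh-Ctrl replicate 3 lay among the sh-PRLR arrays (0.15, limma adjusted p = 0.451). All 4 CDK1 probe sets were higher in sh-PRLR, and another of them passed, with 12.35, 12.48 and 12.48 against 12.77, 12.62 and 12.66 (0.25, limma adjusted p = 0.0379 in the probe-set fit). CCNA2, cyclin A, read 11.69, 11.60 and 11.60 against 11.83, 11.78 and 11.75. The groups did not overlap, and neither of its probe sets passed (0.16, limma adjusted p = 0.114, and 0.20 for the second, limma adjusted p = 0.0570 in the probe-set fit). CDC25C, a related phosphatase, read 10.05, 9.82 and 10.24 against 10.41, 10.33 and 10.40. Its change of 0.34 missed the threshold (limma adjusted p = 0.0648) although its 3 probe sets were all higher, and it passed without sh-Ctrl replicate 3 (0.45, limma adjusted p = 0.0304). PLK1, the Polo-like kinase, scattered widely, with 7.21, 7.75 and 7.34 against 7.90, 7.45 and 7.98, which overlap (0.34, limma adjusted p = 0.397). The B cyclins CCNB1 (0.073) and CCNB2 (-0.048), and BORA (0.048), the activator of Aurora A toward PLK1, differed by less than 0.1.

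**Figure D3:**
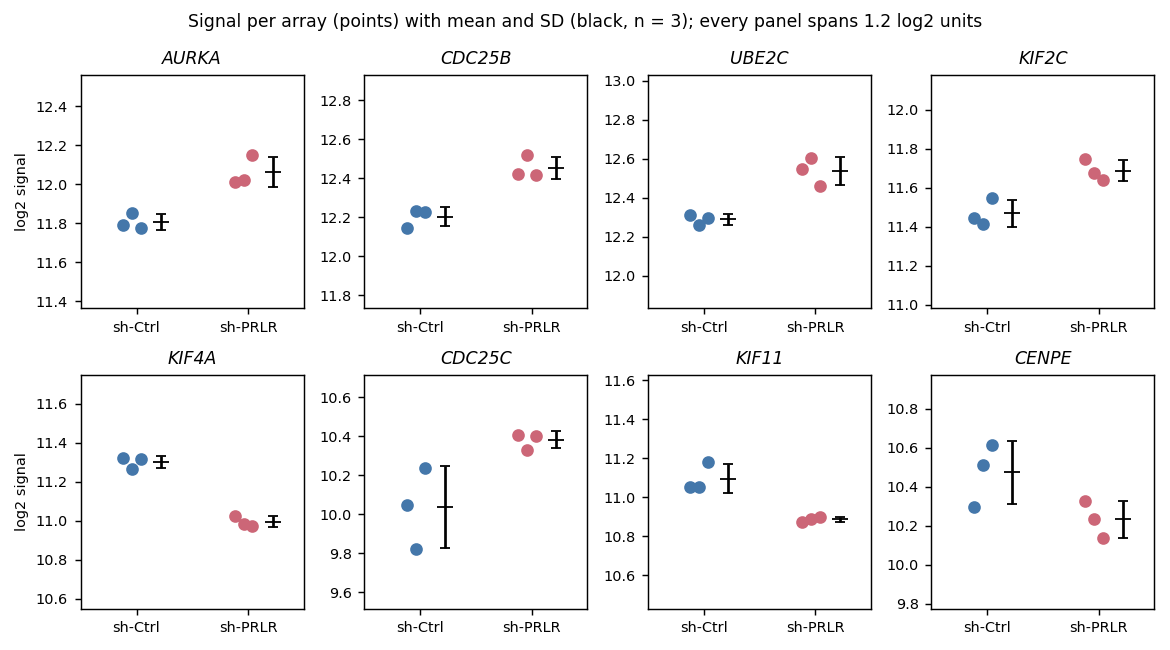
Log2 signal of 8 mitosis genes on each array (points), with the mean and SD of 3 arrays (black); every panel spans 1.2 log2 units. AURKA, CDC25B, UBE2C, KIF2C and KIF4A passed the test, CDC25C and KIF11 missed the threshold without overlap between groups, and CENPE overlaps.

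UBE2C was the 1 gene of the checkpoint and anaphase group that rose. It encodes the ubiquitin-conjugating enzyme that works with the anaphase-promoting complex. It read 12.31, 12.26 and 12.30 against 12.55, 12.61 and 12.46, with no overlap (0.25, SE 0.052, limma adjusted p = 0.0154). The call was lost without sh-Ctrl replicate 2 (limma adjusted p = 0.0812) or sh-PRLR replicate 2 (0.0712). PTTG1, securin, which blocks separase until anaphase, read 13.04, 13.13 and 13.24 against 13.22, 13.30 and 13.32. The groups overlapped at sh-Ctrl replicate 3, and the change of 0.14 did not pass (limma adjusted p = 0.177). Its probe set is of a kind, marked _x_at, that can share targets with a close paralogue, so the share of each is uncertain. The probe sets that stand for BUB3 and CENPA are also marked _x_at. BUB3, a checkpoint adaptor, was steady in its brightest probe set. It read 13.52, 13.51 and 13.53 against 13.51, 13.54 and 13.49 (95% interval of the change -0.093 to 0.084). Of the 6 BUB3 probe sets, 2 were higher and 4 lower. Another of them read 13.30, 13.28 and 13.33 against 13.14, 13.19 and 13.18, lower without overlap. That change did not pass (-0.13, limma adjusted p = 0.122 in the probe-set fit).

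The remaining checkpoint and anaphase genes did not pass. The kinase gene BUB1 was higher by 0.10, with 11.30, 11.28 and 11.26 against 11.39, 11.34 and 11.42, which do not overlap (limma adjusted p = 0.327). BUB1B, or BubR1, differed by 0.014, MAD2L1, which is the inhibitor of CDC20, by 0.0042, and TTK, the Mps1 kinase, by 0.052. CDC20, the activator of the anaphase-promoting complex, read 11.57, 11.78 and 12.06 against 11.74, 11.71 and 11.78. Its sh-PRLR arrays all lay inside the range of its sh-Ctrl arrays (-0.062). ESPL1, separase, differed by -0.075.

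In the kinetochore group 0 of 8 genes passed limma, and 1, CENPE, had an unadjusted p under 0.05. CENPE, the motor that carries chromosomes to the spindle equator, read 10.30, 10.51 and 10.61 against 10.33, 10.23 and 10.14. The sh-Ctrl replicate 1 lay among the sh-PRLR arrays, and the change was -0.24 (95% interval -0.44 to -0.039, limma adjusted p = 0.157). CENPA, the histone variant that marks centromeres, read 9.64, 9.54 and 9.29 against 9.69, 9.55 and 9.80, which overlap (0.19, limma adjusted p = 0.370). CENPF, a protein of the outer corona, read 12.21, 12.28 and 12.29 against 12.17, 12.20 and 12.18. The groups did not overlap, but the change was only -0.080 (limma adjusted p = 0.410). The 4 subunits of the Ndc80 complex, which binds microtubules directly, did not share a direction. NDC80 (0.026) and NUF2 (0.077) were slightly higher, SPC24 (-0.083) and SPC25 (-0.15) lower, and in all 4 the groups overlapped. With each array centred on its median NDC80 was also lower, at -0.0082. CENPN, which recognises CENPA nucleosomes, differed by -0.021. All 4 CENPN probe sets were lower, 1 of them by -0.29 without overlap and without passing (limma adjusted p = 0.109 in the probe-set fit).

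The chromosomal passenger complex, which corrects wrong attachments and later steers cytokinesis, had 0 of 4 genes past limma and 0 with an unadjusted p under 0.05. BIRC5, survivin, read 11.13, 10.95 and 10.94 against 10.85, 10.76 and 10.97, which overlap (-0.15, limma adjusted p = 0.326). Of its 4 probe sets 3 were lower and 1 was higher. The other lower ones (-0.19 and -0.25) and the higher one (0.26) each had no overlap between groups. They did not pass (limma adjusted p = 0.395, 0.263 and 0.469 in the probe-set fit). AURKB, the kinase of the complex, read 9.17, 9.08 and 8.96 against 8.94, 8.81 and 9.08 (-0.13, limma adjusted p = 0.588). INCENP, the scaffold, differed by -0.13 and CDCA8, borealin, by 0.024. The group's mean deviation was highest on sh-Ctrl replicate 1, at 0.16, and lowest on sh-PRLR replicate 2, at -0.12.

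Among 9 spindle genes KIF2C rose, and KIF11 was lower without passing. KIF2C, or MCAK, a kinesin that takes microtubules apart at centromeres, read 11.45, 11.41 and 11.55 against 11.75, 11.67 and 11.64. The groups did not overlap (0.22, SE 0.059, limma adjusted p = 0.0469). The call rests on all 6 arrays, since it was lost on leaving out any of them (limma adjusted p from 0.0516 to 0.182), and the second KIF2C probe set differed by only 0.062. KIF11, or Eg5, the motor that pushes spindle poles apart, read 11.05, 11.05 and 11.18 against 10.87, 10.89 and 10.90. The sh-PRLR arrays were all lower and close together, and the change was -0.21 (95% interval -0.34 to -0.074, limma adjusted p = 0.0667). HMMR, which links microtubules at the poles, read 13.13, 13.06 and 13.28 against 13.24, 13.12 and 13.26, which overlap (0.048). KIF15, a motor that can stand in for KIF11, differed by 0.11, and KIF18A, which damps chromosome movement, by 0.10. ASPM, a pole protein (0.10), NUSAP1, a microtubule bundler (0.075), TPX2, the spindle activator of Aurora A (-0.055), and DLGAP5 (-0.0056) did not pass either. The second NUSAP1 probe set was higher by 0.20 without overlap and without passing (limma adjusted p = 0.0778 in the probe-set fit).

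KIF4A, a chromosome-bound kinesin that also shortens the central spindle with PRC1, was the 1 gene of the 50 that fell. It read 11.32, 11.27 and 11.32 against 11.03, 10.98 and 10.97. The groups were far apart beside their SDs of 0.032 and 0.028, and the change was -0.31 (SE 0.055, 95% interval -0.43 to -0.19, limma adjusted p = 0.00781). KIF4A kept its call with each of the 6 arrays left out in turn (limma adjusted p from 0.0114 to 0.0375), and lost it with default settings (0.133) and with each array centred on its median (0.103). Its single probe set may also read KIF4B, a near-identical copy, and the share of each is uncertain.

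The other cytokinesis genes moved little. PRC1, the bundler of the central spindle and partner of KIF4A, read 12.60, 12.69 and 12.77 against 12.57, 12.59 and 12.55. The groups did not overlap, and its change of -0.12 did not pass (limma adjusted p = 0.254). ECT2, the exchange factor that switches on RhoA at the division plane, read 12.67, 12.62 and 12.72 against 12.78, 12.82 and 12.83. All sh-PRLR arrays were higher, without passing (0.14, limma adjusted p = 0.115), and its 3 probe sets were all higher. The centralspindlin pair KIF23 (0.048) and RACGAP1 (-0.0092), the ring scaffold ANLN (0.051), and the kinesins KIF14 (0.033) and KIF20B (0.044) differed by less than 0.1, and KIF20A by -0.14.

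TOP2A and MKI67, genes of the mitotic chromosome that are widely read as marks of proliferation, did not pass (0 of 2, and 0 with an unadjusted p under 0.05). TOP2A, the topoisomerase that untangles chromatids, read 13.00, 13.14 and 13.31 against 13.31, 13.16 and 13.13, overlapping over most of their range (0.052, 95% interval -0.12 to 0.22). MKI67, the coat protein Ki-67, read 11.70, 11.64 and 11.77 against 11.68, 11.80 and 11.65 (0.0042, 95% interval -0.13 to 0.14). Its 4 probe sets disagreed. One of them, with 9.60, 9.60 and 9.37 against 8.93, 9.28 and 9.27, and another, with 9.11, 9.21 and 9.03 against 8.85, 8.74 and 8.77, were both lower without overlap and without passing (limma adjusted p = 0.123 and 0.101 in the probe-set fit). Which of the 4 follows the MKI67 transcript best was not tested.

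**Figure D4:**
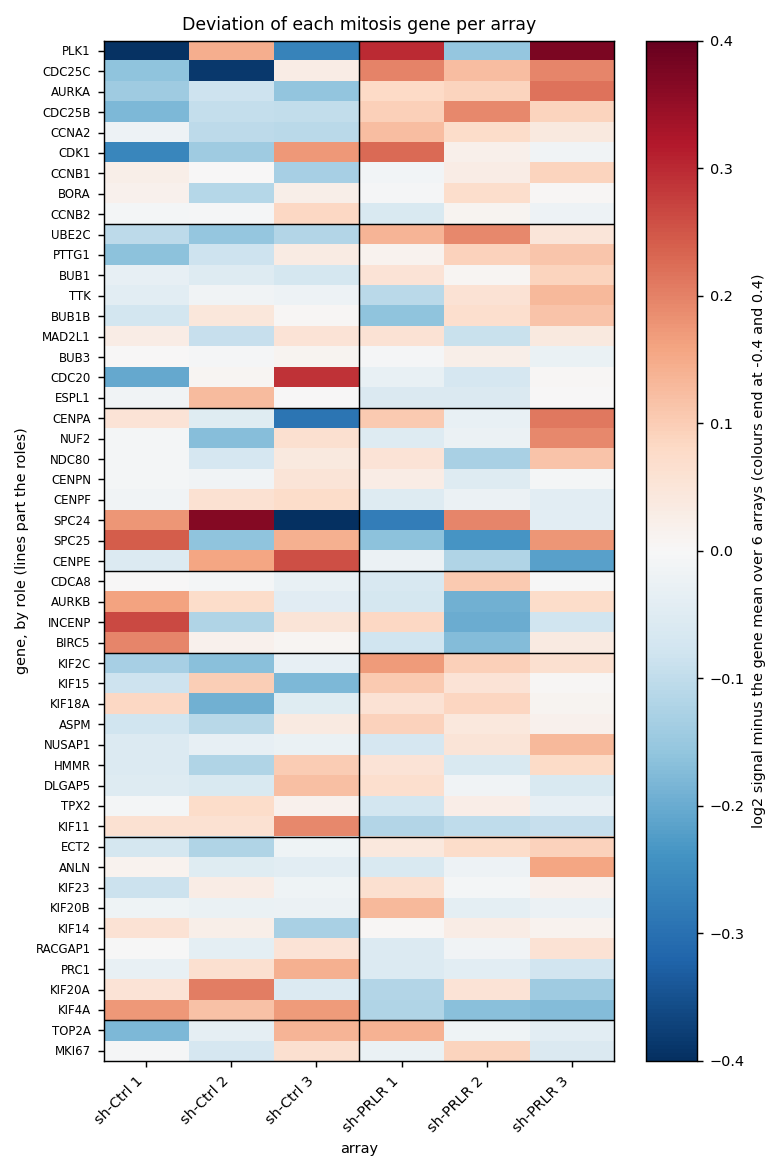
Log2 signal of each mitosis gene on each of 6 arrays minus that gene's mean over all arrays, ordered by role; colours end at -0.4 and 0.4. The entry genes are mostly below their mean in sh-Ctrl and above it in sh-PRLR, while KIF4A and KIF11 show the opposite and most other genes show no split by group.

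Probe sets of the same gene offered a further reading. The 50 genes had 100 probe sets, 6 of which passed in the probe-set fit, 5 higher and 1 lower, beside 4.67% of the 41091 probe sets tested. They belonged to AURKA (2), CDK1, CDC25B, UBE2C and KIF4A, and KIF2C was not among them. Of 26 genes with more than 1 probe set, 14 had all of them on the same side of 0. Averaged over the 50 genes, the deviation from each gene's mean was -0.023, -0.025 and 0.0020 on the sh-Ctrl arrays and 0.011, -0.0020 and 0.037 on the sh-PRLR arrays. These values overlap, as sh-PRLR replicate 2 lies below sh-Ctrl replicate 3. For the 9 entry genes the same means were -0.13, -0.087 and -0.051 against 0.10, 0.050 and 0.11, which do not overlap. For the 9 cytokinesis genes they were 0.011, 0.022 and 0.0095 against -0.019, -0.015 and -0.0087. This smaller split in the opposite direction does not overlap either. Yet 5 of these 9 genes were higher, with a median change of 0.033, and the lowest change was that of KIF4A, at -0.31. In the other 5 role groups the arrays overlapped. The median signal of all probe sets was 5.99, 5.93 and 5.86 on the sh-Ctrl arrays and 5.86, 5.95 and 6.07 on the sh-PRLR arrays. With these medians taken off, the arrays of both groups would overlap for the entry and for the cytokinesis genes. Among single genes above the median level, 38.9% did not overlap, and no such share was computed for means of several genes.

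Other genes of mitosis were taken from a textbook list of 109, of which 104 were measured. Of these, 3 rose and 10 fell (12.5% in all), and their median was -0.055. The background was 3.34% higher and 4.32% lower over all genes, and 6.43% and 8.17% over genes above the median level, where 100 of the 104 lay, so the share that passed was near that of such genes. The count of 13 was 6 and 7 without sh-Ctrl replicates 2 and 3 and 7 without sh-PRLR replicate 2. FOXM1 and MYBL2, factors of the late cell cycle programme, were among those that fell. FOXM1, a forkhead factor for G2 and mitosis genes, read 10.64, 10.65 and 10.62 against 10.16, 10.15 and 10.03, a fall of 0.52 to 0.697 of control (limma adjusted p = 0.00136). Its probe set is marked _x_at, like that of PTTG1, and may share targets with other transcripts. MYBL2, the B-Myb factor that MuvB complexes can carry, had a mean of 8.88 ± 0.14 against 8.16 ± 0.14 (-0.72, limma adjusted p = 0.00717). The groups did not overlap for either gene. CENPU, SKA3, SMC1A, STAG1, CLASP2 and STMN1 fell too.

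Of the same list, ZWINT, a kinetochore protein, fell by 0.43 on the log2 scale (limma adjusted p = 0.00448) and ENSA, an inhibitor of the phosphatase PP2A, fell by 0.41 (limma adjusted p = 0.00434). ENSA did not pass when its probe sets were averaged (-0.11, limma adjusted p = 0.406). MAD1L1, the checkpoint partner of MAD2L1, read 8.26, 8.09 and 8.48 against 8.96, 9.01 and 9.04, a rise of 0.73 (limma adjusted p = 0.00601), while the means of MAD2L1 were 13.24 and 13.25. KNSTRN, a kinetochore and spindle protein, rose by 0.28 and CKS2, a small partner of CDK1, by 0.28. KNSTRN lost its call without any array but sh-PRLR replicate 1 (limma adjusted p from 0.0629 to 0.105), and CKS2 without any array but sh-Ctrl replicate 1 (limma adjusted p from 0.0768 to 0.161). By complex, 2 of 17 condensin and cohesin genes fell, and 0 of 14 measured subunits and partners of the anaphase-promoting complex passed, with 2 at an unadjusted p under 0.05. In cytokinesis 0 of 8 measured genes passed, also with 2 at an unadjusted p under 0.05.

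DNA replication genes, the neighbours in the cell cycle, stood lower in the same arrays. Of 28, all above the median level, 13 fell and 0 rose, beside 8.17% lower and 6.43% higher among genes above that level, and the median was -0.30, beside 0.039 for the mitosis genes. MCM3, of the replicative helicase, read 12.36, 12.41 and 12.33 against 11.79, 11.78 and 11.78 (-0.58, limma adjusted p = 0.000106), and GINS2, another helicase component, went from 9.87 ± 0.047 to 8.96 ± 0.13 (-0.91, limma adjusted p = 0.000367). MCM2 and GINS1 fell as well, by 0.44 and 0.29 on the log2 scale. The count of 13 was 7 without sh-Ctrl replicate 1, 2 or 3. Of the mitosis genes, 1 of 50 fell. These counts stand side by side, and the difference between the lists was not tested. Over all genes 660 rose and 854 fell, and 143 and 361 with each array centred on its median, under which 0 mitosis genes passed limma and 4 had an unadjusted p under 0.05, while 3 replication genes fell.

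**Figure D5:**
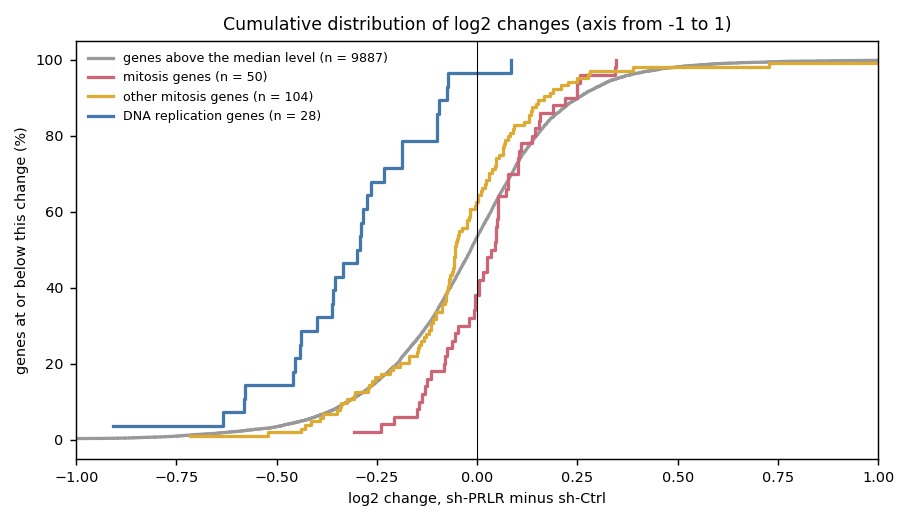
Cumulative share of genes by log2 change, sh-PRLR minus sh-Ctrl, for the 50 mitosis genes, 104 other mitosis genes, 28 DNA replication genes and the 9887 genes above the median level; the axis runs from -1 to 1. The mitosis curve is steep around its median of 0.039, and the replication curve lies to the left, around -0.30.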

How the data were processed

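The authors' deposited table gives a log2 value for every probe set on every array. The tools listed per the submitters' processing notes are MAS5, RMA and affy, with no role or version. On the linear scale the mean with 2% trimmed was 500 on all 6 arrays, so the values were used as deposited. Of 54675 probe sets, 41091 had 1 gene symbol in the platform annotation, 1801 several and 11783 none there, and the array's control probe sets were not tested. Genes were tested with limma 3.58.1 in R 4.3.3 (lmFit, eBayes with trend and robust), two-sided, without a block, with Benjamini-Hochberg adjustment over 19775 genes, or over 41091 probe sets where stated, at 0.05. "Rose" and "fell" refer to this test. It was checked on simulated data with planted changes of 0.5 and 1 in size. Smaller changes, such as those of the mitosis genes that passed, were not simulated. The genes, lists, motifs and this choice of variance were made with earlier results of these data known. Alternatives were default eBayes, quantile normalisation, median centring, leaving out the dimmest 40% of genes (11865 kept), averaging probe sets, leaving out _x_at and _s_at probe sets, the replicate number as a block, and leaving out each array. Named with all values were genes past the test and, per role, the 2 smallest p and the highest signal; others shown in full were chosen after their values were seen. Of the other lists, up to 4 genes per direction were given with values by p; the other mitosis genes that fell are named without values, chosen after these were seen. Figures used Python 3.11.15 and matplotlib 3.10.9.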

Additional observations from a re-analysis of the deposited data

How the results depend on the processing

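The 5 calls among mitosis genes depended on the settings, and 34 of 64 alternative values passed the threshold. The log2 change itself differed from the reported one in 43 of the 64, since the other alternatives alter only the p, and in 0 of these 43 was the sign opposite. The count was 0 with limma's default settings (7 at an unadjusted p under 0.05) and 0 with median centring (4 at an unadjusted p under 0.05), 3 with averaged probe sets, 2 of 39 without _x_at and _s_at probe sets, and 1 to 4 with an array left out (2 and 1 without sh-Ctrl replicates 1 and 2, 2 and 3 without sh-PRLR replicates 2 and 3). With quantile normalisation it was 5, beside 1548 calls over all genes. Without the dimmest 40% of genes it was 7 (5 higher and 2 lower), beside 2026 calls over all genes kept. Median centring moved the median change to 0.0050; with an array left out it was 0.022 to 0.046. In the same order (default, centred, averaged, an array left out), all genes gave 4, 504, 609 and 665 to 1322 calls, other mitosis genes 0 (18 unadjusted), 5, 8 and 6 to 13, and replication genes 0 (15 unadjusted), 3, 6 and 7 to 13. All genes gave 821, 665 and 893 calls without sh-Ctrl replicates 1, 2 and 3, and 859 and 948 without sh-PRLR replicates 2 and 3. For the 45 mitosis genes without a call, 43 of the 395 alternative values that differed from the reported one had the opposite sign, and 3 of 575 passed. The cause was not tested. With the replicate number as a block, 4 mitosis genes passed (KIF2C did not, limma adjusted p = 0.0898) and 1090 genes in all; same-numbered arrays did not deviate together (correlations -0.024, 0.0044 and -0.012). The 3 arrays of a group limit the precision, above all for genes with wide intervals such as PLK1 and SPC24.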
